A study of Mus musculus with 6 samples.

Results

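The Fc gamma receptors bind the constant part of IgG, and 6 genes of this system were followed in mouse bone marrow-derived macrophages (BMDMs). They are the activating receptors Fcgr1, Fcgr3 and Fcgr4, the inhibitory receptor Fcgr2b, the signalling adaptor Fcer1g, and Fcgrt, the heavy chain of the neonatal Fc receptor. The members were taken by gene symbol through the Ensembl gene ID of each row of the count table, and 6 of 54446 rows belong to them. All 6 passed the filter of at least 10 counts in at least 1 library, as did 14917 genes in all.

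The cells were grown from the marrow of male BALB/c mice aged 6 to 8 weeks, in medium with 20% L929-conditioned medium for 7 days. They were left without cytokine (M0), given IFN-γ at 20 ng/mL with LPS at 50 ng/mL (M1), or given IL4 at 20 ng/mL (M2) for 24 hours. In each state, 1 library came from control cells and 1 from cells given regorafenib, a multikinase inhibitor, at 1 µM from 1 hour before polarization, and the labels name DMSO as the treatment set against regorafenib. There are thus 6 libraries with 1 per condition, no ratio between conditions has a replicate check, and the number of mice behind a library is not given in the sources used here.

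An activating receptor passes its signal through Fcer1g, the common Fc receptor gamma chain, whose ITAM (immunoreceptor tyrosine-based activation motif) is phosphorylated by Src-family kinases and then recruits Syk. Fcgr2b carries an ITIM (immunoreceptor tyrosine-based inhibitory motif) in its own tail, which recruits the phosphatase SHIP1, the product of Inpp5d. Macrophages use these receptors to take up antibody-coated cells and immune complexes, and the balance of activating and inhibitory receptors sets the threshold for that response. Fcgrt works differently: paired with beta-2 microglobulin (B2m), it binds IgG in acidic endosomes and returns it from lysosomal degradation.

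The coding stretches below show the opposing motifs of the adaptor and the inhibitory receptor, with the tyrosine codons in capitals. They come from the principal transcripts of Gencode M21 on GRCm38. The ITAM pattern was found in Fcer1g and in none of the other 5 coding sequences, at coding bases 193 to 237 of 258. The Fcgr2b stretch lies at coding bases 949 to 966 of 1020. The short ITIM pattern (isoleucine, leucine, valine or serine, then any residue, tyrosine, 2 of any residue, and isoleucine, leucine or valine) also matched inside the coding sequences of Fcgr1, Fcgr4, Fcer1g and Fcgrt, so that a match by itself marks no working motif.
Fcer1g ITAM: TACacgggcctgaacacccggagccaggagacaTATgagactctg
Fcgr2b ITIM: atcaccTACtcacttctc

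Letter motifs were also searched in the 250 bases before the RefSeq start sites of the members (GRCm38.p6), and the 3 promoters with a match to an interferon or forkhead motif are shown, since Fcgr1 and Fcgr4 had their highest levels in M1 control cells and Fcgrt had its lowest there. The windows are chr3:96293970-96294219 on the minus strand for Fcgr1, chr1:171018676-171018925 on the plus strand for Fcgr4 and chr7:45103823-45104072 on the minus strand for Fcgrt. The capitals mark the matches.
Fcgr1 promoter: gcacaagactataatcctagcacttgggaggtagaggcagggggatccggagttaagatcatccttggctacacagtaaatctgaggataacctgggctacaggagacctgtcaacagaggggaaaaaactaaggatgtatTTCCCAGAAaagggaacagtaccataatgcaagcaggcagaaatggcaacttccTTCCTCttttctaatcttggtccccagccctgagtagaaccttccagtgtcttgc
Fcgr4 promoter: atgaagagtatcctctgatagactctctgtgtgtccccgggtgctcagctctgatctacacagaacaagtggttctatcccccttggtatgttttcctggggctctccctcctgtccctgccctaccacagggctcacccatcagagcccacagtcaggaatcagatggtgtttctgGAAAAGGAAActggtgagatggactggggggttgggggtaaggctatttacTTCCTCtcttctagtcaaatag
Fcgrt promoter: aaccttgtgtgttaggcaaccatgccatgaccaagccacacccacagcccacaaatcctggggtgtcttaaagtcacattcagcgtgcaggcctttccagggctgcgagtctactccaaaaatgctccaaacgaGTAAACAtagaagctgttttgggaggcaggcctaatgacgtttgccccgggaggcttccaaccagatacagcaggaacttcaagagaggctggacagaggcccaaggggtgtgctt

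The first match in Fcgr1 has the letters TTCNNNGAA of the gamma-activated site (GAS), an element of genes induced by IFN-γ, and it starts at base -109 from the start site. These letters stand in 7.02% of all 32851 promoter windows of this length. The first match in Fcgr4 has the letters of the interferon-stimulated response element (ISRE), which are GAAA, 2 bases of any kind and GAAA, at base -73, which 2.98% of the windows hold. Fcgr1 and Fcgr4 also hold GAGGAA on the other strand, the core letters for the myeloid factor PU.1, at bases -55 and -22, as do 23.3% of the windows and both start sites listed for Fcgr3. Fcgrt holds the forkhead letters GTAAACA at base -116, found in 3.17% of the windows. Neither the GAS nor the ISRE letters stood in the windows of Fcgr2b and Fcer1g, which were also higher in M1. The log2 ratios of M1 to M0 in control cells were 3.54 for Fcgr2b and 1.25 for Fcer1g. They were 0.74 for Fcgr1 and 2.84 for Fcgr4, so that the letters did not follow the size of the rise. The letters of a STAT6 site, TTC, 4 bases of any kind and GAA, occur in 5.85% of the windows and in none of the 7 windows of the members. Both strands were searched, no 2 matches shown overlap, and a match is a run of letters and not a measured binding site.

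Of the members, 4 lie together on chromosome 1 of GRCm38. Fcgr2b (ENSMUSG00000026656.15) spans bases 170958617 to 170976547 on the minus strand, Fcgr4 (ENSMUSG00000059089.4) 171018920 to 171029761 on the plus strand, Fcgr3 (ENSMUSG00000059498.13) 171051174 to 171064935 on the minus strand, and Fcer1g (ENSMUSG00000058715.11) 171229572 to 171234365 on the minus strand. Fcgr1 (ENSMUSG00000015947.10) lies on chromosome 3, at 96282909 to 96293969 on the minus strand, and Fcgrt (ENSMUSG00000003420.8) on chromosome 7, at 45092990 to 45103851 on the minus strand. The coding sequences of Fcgr2b and Fcgr3 were alike, with 86.7% identity over 782 aligned bases and 1 identical run of 129 bases. The other receptor pairs had identities of 64.1% to 68.6% and no identical run over 14 bases. Of the 100-base words of each gene, 4.30% in Fcgr2b and 2.54% in Fcgr3 occur in another gene too, and none do in the other 4 members. Of the 251 shared words of Fcgr2b, 44 are shared with Fcgr3, and others with Cplx2, Gm47409, Rab3c or Gm38204. A read pair that lies wholly within shared words cannot be assigned to 1 gene, and the values of Fcgr2b and Fcgr3 are uncertain to that extent. Fcgr2b also shares 155 exon bases with Gm38204, an antisense gene with 0 to 2 counts per library.

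The libraries held 25359309 to 34898342 counts. All 7 macrophage markers, among them Adgre1, Csf1r and Cd68, were above 3 counts in every library, with summed levels of 21982 to 48347 CPM (counts per 1000000 counts of a library whose size was adjusted with TMM, a scaling by the ratios of most genes). T cell genes (3) were at 0 everywhere, and none of 4 NK cell genes was above 3 counts. B cells and mast cells also carry members of this family. Of 5 B cell genes, 0 to 1 were above 3 counts (summed level 0 to 0.228 CPM), and of 5 mast cell and basophil genes 0 to 1 (0 to 0.179 CPM), with Ms4a1, Pax5, Cpa3 and Fcer1a at 0. Of 7 neutrophil genes, 2 to 3 were above 3 counts, with sums of 84.8 to 158 CPM that came mostly from Mpo. Ly6g was at 0 in every library. Of 4 dendritic cell genes 1 to 2 were above 3 counts (0.182 to 4.52 CPM), and of 3 fibroblast genes 2 to 3 (2.83 to 9.43 CPM). The 4 genes Nos2, Il12b, Cxcl9 and Cxcl10, chosen as M1 checks, summed to 17031 and 11183 CPM in the M1 libraries and to 16.6 CPM or less elsewhere. All 4 genes chosen as M2 checks were higher by 2-fold or more in M2 than in M0 in both arms. The 3 given here were highest in M2. Mrc1 had 24237 and 12895 counts in M2 control and regorafenib and 805 or fewer elsewhere, Retnla had 941 and 3348 counts in M2 and 2 or fewer elsewhere, and Chil3 had 379 and 675 counts in M2 and 1 or fewer elsewhere.

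Fcgr1, the high-affinity receptor for IgG2a, was lower with regorafenib in all 3 states. Its level was 100.01 CPM in control and 35.9 CPM with regorafenib in M0, 167 and 71.2 CPM in M1, and 19.4 and 8.19 CPM in M2. These levels rest on 3072, 1184, 4314, 1715, 710 and 229 counts, in the same order. The M1 control library was the highest of the 6 and the M2 regorafenib library the lowest, 20.4-fold apart. The counting intervals of all neighbours in this order were separate. In these bulk libraries, fewer cells that express a gene and less RNA per cell cannot be told apart.

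Within each state, Fcgr1 was 2.78-fold lower with regorafenib in M0 (log2 ratio -1.48, 95% interval -1.58 to -1.38), 2.35-fold lower in M1 (-1.23, -1.31 to -1.15) and 2.38-fold lower in M2 (-1.25, -1.47 to -1.03). These intervals, like all intervals given for ratios, cover counting error only. The ratio in M2 differed from that in M1 by -0.02 (-0.25 to 0.21), within counting error, and that in M1 was 0.25 (0.12 to 0.37) above that in M0. Fcgr1 was the only member lower by 2-fold or more in each state. Across all 14917 genes, 68 were (0.456%). No member was higher by 2-fold in each state, as 57 genes were (0.382%).

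Set against its own M0 level, Fcgr1 was 1.67-fold higher in M1 control cells (log2 ratio 0.74) and 5.14-fold lower in M2 control cells (-2.36). With regorafenib it was 1.98-fold higher in M1 than in M0 (0.99) and 4.39-fold lower in M2 (-2.13). The M1 and M2 ratios of an arm share the M0 library of that arm. A fit of state and drug as added terms, with 14110 genes, gave Fcgr1 a rise in M1 against M0 (log2 change 0.86, SE 0.16, edgeR adjusted p = 0.0097) and a fall in M2 (-2.25, SE 0.17, edgeR adjusted p = 0.013). It used 2 libraries per side for a state and 3 per side for the drug, and it took the difference between states, or between drug arms, as its error.

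**Figure D1:**
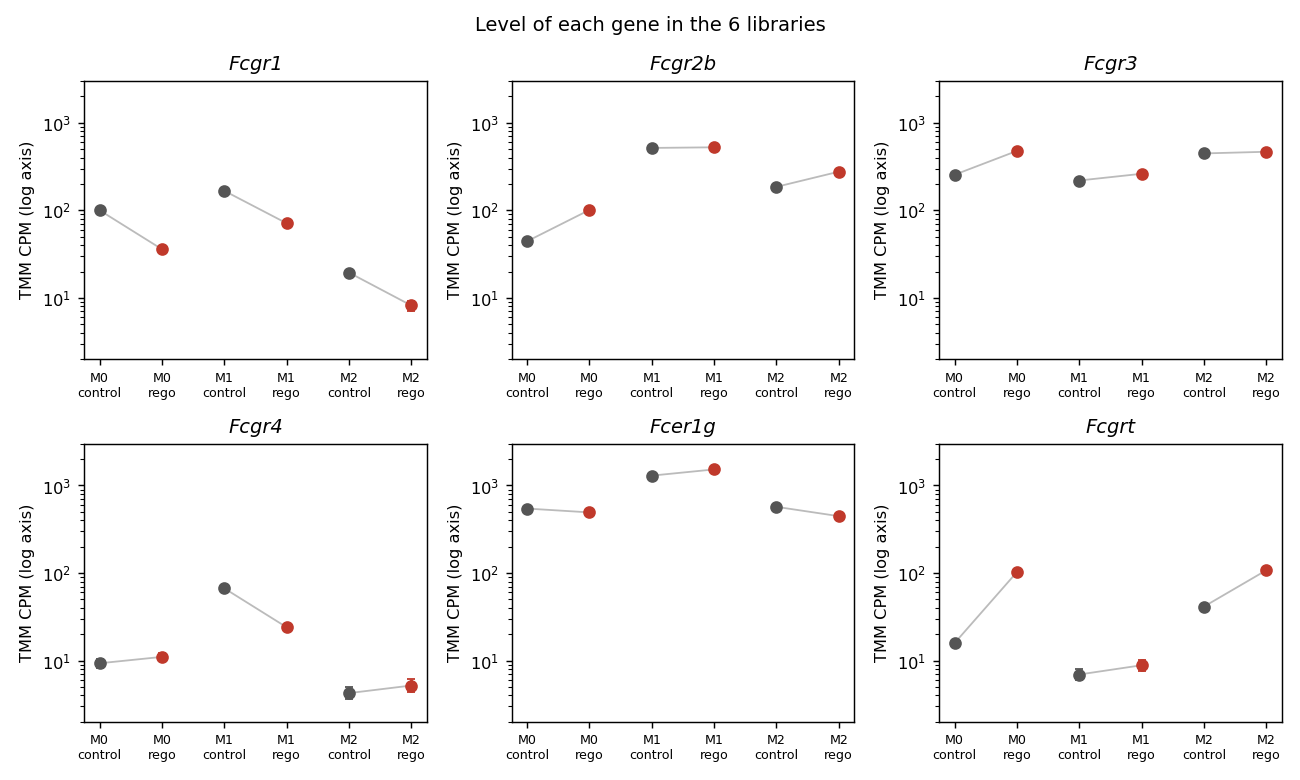
Level of each of the 6 genes in the 6 libraries, in TMM-scaled CPM on a log axis, with grey points for control and red points for regorafenib (rego) and a line joining the libraries of 1 state. Bars are 95% counting intervals and are mostly smaller than the points. Fcgr1 has its red point below the grey one in all 3 states, from 167 to 71.2 CPM in M1.

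Fcgr4, a receptor with intermediate affinity for IgG2a and IgG2b, was highest in M1 control cells. It had 9.31 CPM in M0 control, 11.0 CPM in M0 with regorafenib, 66.9 CPM in M1 control, 24.0 CPM in M1 with regorafenib, 4.25 CPM in M2 control and 5.18 CPM in M2 with regorafenib. The counts behind these levels were 286, 363, 1728, 579, 155 and 145. Both M1 libraries stood above the other 4, and the pairs of M0 and of M2 had overlapping counting intervals.

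Fcgr4 was 2.78-fold lower with regorafenib in M1 (log2 ratio -1.48, -1.62 to -1.34). In M0 and M2 its ratio had the other sign, at 0.24 (0.01 to 0.47) and 0.29 (-0.05 to 0.62). The M1 ratio differed from that in M0 by -1.72 (-1.98 to -1.46) on the log2 scale. Its induction was therefore unequal between the arms: M1 was 7.18-fold above M0 in control cells (2.84, 2.66 to 3.03) and 2.18-fold above it with regorafenib (1.13, 0.93 to 1.32). With libraries scaled to total counts the latter ratio was 0.71, under 2-fold. Fcgr4 in M1 regorafenib cells was still above both M0 libraries. In M2 it was 2.19-fold below M0 in control cells and 2.12-fold below with regorafenib. Fitted over both arms, Fcgr4 rose in M1 (2.07, SE 0.48, edgeR adjusted p = 0.021). Without a filter on low counts this was not called (edgeR adjusted p = 0.052), and over the other alternatives the call held. Of the 7 genes of the neutrophil list, S100a8, which stimulated macrophages express too, had 1804 counts in M1 control, 489 in M1 with regorafenib and 39 to 123 elsewhere. Camp was higher in M1 but near level between the arms, with 108 and 91 counts there and 0 to 1 elsewhere. Mpo had 2144 and 2064 counts in M1, with log2 ratios of 0.05 for regorafenib in M1 and 0.04 for M1 against M0 in control. S100a9 had 11 counts or fewer, and the other 3 had 2 or fewer, in every library. The neutrophil sum was 157 CPM in M1 control and 110 CPM in M1 with regorafenib, with Ly6g and Elane at 0 in both.

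Fcgr3, the low-affinity activating receptor, had the narrowest range of the members, 2.18-fold from lowest to highest. Its levels were 255 CPM in M0 control, 477 CPM in M0 with regorafenib, 219 CPM in M1 control, 261 CPM in M1 with regorafenib, 447 CPM in M2 control and 467 CPM in M2 with regorafenib. The high libraries were 3 (M0 with regorafenib and both M2 libraries), and 3 were low (M0 control and both M1 libraries). The counts ran from 5662 to 16314.

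Regorafenib cells had 1.87-fold more Fcgr3 than control cells in M0 (log2 ratio 0.90, 0.86 to 0.94), 1.19-fold more in M1 (0.25, 0.20 to 0.31) and 1.04-fold more in M2 (0.06, 0.03 to 0.10). None of the 7 ratios between conditions reached 2-fold with TMM scaling, and with total counts M1 against M0 with regorafenib did (-1.28, in place of -0.87). M2 against M0 stood at 0.81 in control cells and at -0.03 (-0.07 to 0.00) with regorafenib. The fitted changes were -0.56 in M1 (SE 0.25, edgeR adjusted p = 0.13) and 0.38 in M2 (SE 0.25, edgeR adjusted p = 0.82), neither past the threshold of 0.05.

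Fcgr2b, the inhibitory receptor, had its lowest level in M0 control cells and was higher in every other library. It had 44.3 CPM in M0 control, 101 CPM in M0 with regorafenib, 516 CPM in M1 control, 525 CPM in M1 with regorafenib, 185 CPM in M2 control and 276 CPM in M2 with regorafenib, on 1362, 3331, 13337, 12647, 6770 and 7726 counts. The order of states was thus M1, M2 and M0 in both arms. The M1 libraries were the only neighbours whose counting intervals overlapped.

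With regorafenib, Fcgr2b was 2.28-fold higher in M0 (log2 ratio 1.19, 1.10 to 1.28) and 1.49-fold higher in M2 (0.57, 0.53 to 0.62). In M1 the ratio was 0.02 (-0.01 to 0.06), within counting error. M1 control cells had 11.6-fold and M2 control cells 4.18-fold the M0 level, against 5.19-fold and 2.73-fold with regorafenib. Over both arms Fcgr2b rose in M1 (2.96, SE 0.31, edgeR adjusted p = 0.0018). In M2 its fitted change was 1.73 (SE 0.30, edgeR adjusted p = 0.11). The M2 change passed the threshold in 3 of 4 alternatives: edgeR adjusted p = 0.046 without both M1 libraries, 0.0070 without a filter on low counts, and a DESeq2 adjusted p of 1.8e-05. It did not pass with DESeq2 size factors in edgeR (adjusted p = 0.12).

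**Figure D2:**
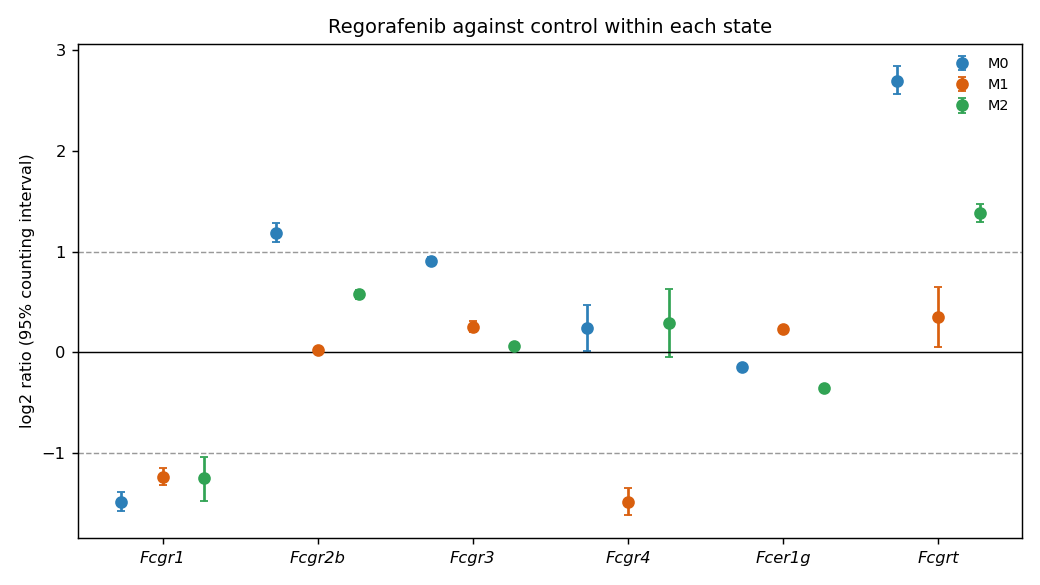
Log2 ratio of regorafenib to control for each gene in M0 (blue), M1 (orange) and M2 (green), from 1 library per condition, with 95% counting intervals and dashed lines at 2-fold. Fcgr1 lies below the lower line in all 3 states (-1.48, -1.23 and -1.25), and Fcgr4 in M1 only (-1.48).

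Fcer1g, the adaptor through which the activating receptors signal and which they need to reach the cell surface, was among the most abundant transcripts of these cells. It had 545 CPM in M0 control, 493 CPM in M0 with regorafenib, 1297 CPM in M1 control, 1526 CPM in M1 with regorafenib, 570 CPM in M2 control and 446 CPM in M2 with regorafenib, on 12489 to 36788 counts. Per kb of exon it ranked 23rd to 44th of 14912 genes in the 6 libraries. Both M1 libraries stood apart above the other 4.

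The drug ratio of Fcer1g in M0 was the smallest in size among the members (log2 ratio -0.15, -0.18 to -0.11). It was 0.24 (0.21 to 0.26) in M1 and -0.35 (-0.39 to -0.32) in M2. In M1 it was 2.38-fold above M0 in control cells and 3.10-fold above with regorafenib, and the fitted rise was 1.45 (SE 0.22, edgeR adjusted p = 0.0051). In M2 it stood within 1.11-fold of M0 in both arms (0.07 in control, -0.14 with regorafenib). With libraries scaled to total counts, the control M2 ratio changed sign and the control M1 ratio was 0.81.

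Fcgrt, which recycles IgG and also serves antigen presentation from immune complexes, was scarcest in M1, where Fcgr1 and Fcgr4 were highest. It had 15.9 CPM in M0 control, 103 CPM in M0 with regorafenib, 6.93 CPM in M1 control, 8.84 CPM in M1 with regorafenib, 41.3 CPM in M2 control and 107 CPM in M2 with regorafenib. The counts were 487, 3383, 179, 213, 1508 and 3004. Both M1 libraries were the lowest, and the M0 and M2 regorafenib libraries were the highest with overlapping intervals.

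Fcgrt had the largest drug ratio of the members, 6.47-fold higher in M0 (log2 ratio 2.69, 2.56 to 2.83). It was 2.60-fold higher in M2 (1.38, 1.29 to 1.47) and 1.28-fold higher in M1 (0.35, 0.06 to 0.65). Its ratio in M1 differed from that in M0 by -2.34 (-2.66 to -2.03). M1 control cells were 2.29-fold below M0 (-1.19), and M1 regorafenib cells 11.6-fold below (-3.54). M2 was 2.61-fold above M0 in control cells (1.38) and level with it under regorafenib (0.07, -0.01 to 0.14). Fitted over both arms, Fcgrt fell in M1 (-2.41, SE 0.56, edgeR adjusted p = 0.021). This call was lost without a filter on low counts (edgeR adjusted p = 0.17) and without both M2 libraries (edgeR adjusted p = 0.064), and it held under the other alternatives. In M0, where Fcgrt differed most between the arms, the summed levels of some marker lists were also higher with regorafenib. They were 29941 and 48347 CPM for macrophages, 84.8 and 158 CPM for neutrophils and 2.83 and 9.43 CPM for fibroblasts in control and regorafenib. The dendritic cell sum was lower, at 0.456 and 0.182 CPM, as was the B cell sum, at 0.228 and 0.152 CPM. In M2 the sums were 21982 and 33584 CPM for macrophages, 88.8 and 132 CPM for neutrophils and 3.12 and 5.22 CPM for fibroblasts. They were 0.466 and 2.18 CPM for dendritic cells and 0.0548 and 0.143 CPM for B cells. The macrophage genes did not all move in the same direction. Their log2 drug ratios ran from -0.45 to 1.59 in M0 (median 0.55) and from -0.74 to 1.34 in M2 (median 0.13). The same libraries stand behind the M0 ratios of Fcgr2b and Fcgr3 and the M2 ratio of Fcgr2b. The part of these markers in the ratios was not tested.

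Counted by the 2-fold rule, regorafenib separated 3 of the 6 members in M0 (Fcgr2b and Fcgrt higher, Fcgr1 lower), where 21.6% of all genes were past 2-fold (9.85% higher and 11.7% lower). It separated 2 in M1 (Fcgr1 and Fcgr4, both lower), against 7.94% of all genes (3.3% higher and 4.64% lower), and 2 in M2 (Fcgrt higher, Fcgr1 lower), against 13.2% (7.43% higher and 5.81% lower). The median log2 ratio of the members was 0.57 in M0, 0.13 in M1 and 0.18 in M2, beside -0.01, -0.02 and -0.01 over all genes. Polarization separated 4 members in M1 control cells, 3 higher and 1 lower, against 37.5% of all genes (17.4% higher and 20.1% lower). With libraries scaled to total counts it separated 3 there, Fcgr2b and Fcgr4 higher and Fcgrt lower, and 6314 of 14917 genes were past 2-fold in place of 5598, of which 30% were higher in place of 46.4%. In M2 control cells it separated 4, 2 in each direction, against 14% (5.23% higher and 8.82% lower). With regorafenib it separated 4 in M1, 3 higher and 1 lower, against 38.8% (16.9% higher and 21.9% lower). Scaled to total counts it also separated 4, 2 higher (Fcgr2b and Fcer1g) and 2 lower (Fcgr3 and Fcgrt), and 6467 genes were past 2-fold in place of 5783, of which 28.6% were higher in place of 43.6%. In M2 with regorafenib it separated 3, of which Fcgr2b was higher and Fcgr1 and Fcgr4 were lower, against 11.5% (5.7% higher and 5.79% lower).

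In the fit across all genes, 36.4% of 14110 genes passed the threshold of edgeR's adjusted p of 0.05 in M1 against M0, and 5 of the 6 members did: Fcgr1, Fcgr2b, Fcgr4 and Fcer1g rose and Fcgrt fell. In M2 against M0, 0.198% of genes passed (28 genes), Fcgr1 among them. For regorafenib over the 3 states, edgeR called 0 genes (0%), with 1634 at an unadjusted p under 0.05, and DESeq2 called 296 (2.25% of 13150). DESeq2 called 32.5% of genes in M1 and 3.04% in M2 against M0.

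Ordered by edgeR p for regorafenib, Fcgr1 stood at rank 2 of 14110 genes. Its fitted log2 change was -1.32 (SE 0.13, edgeR adjusted p = 0.25). It was lower in 3 of 3 states. Its adjusted p ran from 5.0e-09 with DESeq2 to 0.33 in edgeR without both M0 libraries, and it was under the threshold in 3 of 6 alternatives. Those were DESeq2, edgeR with no filter on low counts (adjusted p = 0.0017) and edgeR without both M1 libraries (adjusted p = 0.030). For Fcgrt the fitted change was 1.503 (SE 0.44, edgeR adjusted p = 0.38), and its adjusted p ran from 0.022 with DESeq2 to 0.9997 without both M2 libraries in edgeR. Fcgr2b had 0.59 (edgeR adjusted p = 0.43), Fcgr3 0.41 (0.45), Fcgr4 -0.33 (0.69) and Fcer1g -0.09 (0.82), with edgeR's adjusted p in parentheses. With 1 state left out, the edgeR changes ran from 0.90 to 2.03 for Fcgrt, 0.30 to 0.88 for Fcgr2b and 0.16 to 0.57 for Fcgr3. The sign turned for Fcgr4 without both M1 libraries (0.27) and for Fcer1g without both M2 libraries (0.03).

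**Figure D3:**
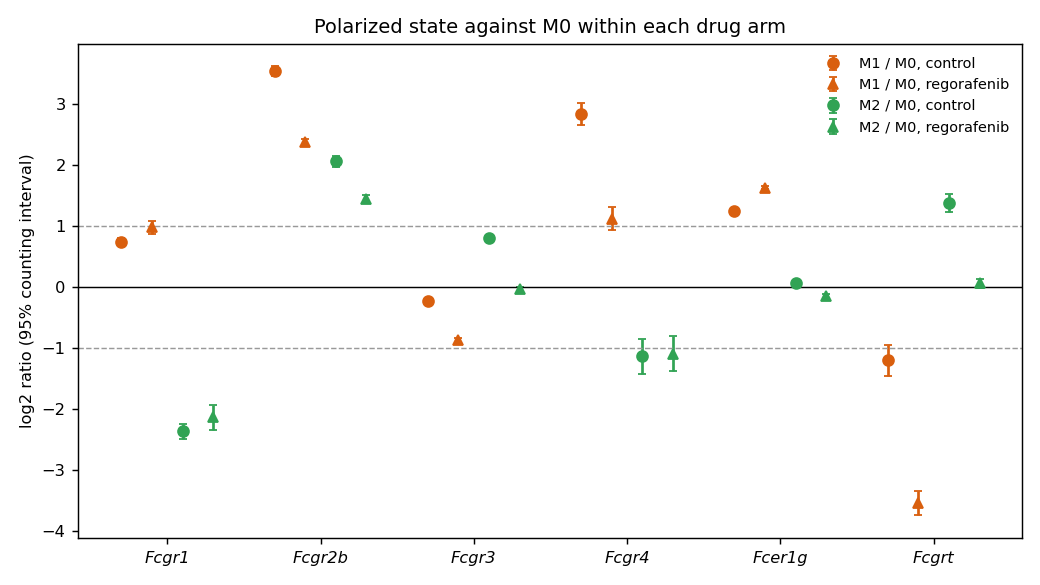
Log2 ratio of M1 to M0 (orange) and of M2 to M0 (green) for each gene, in control cells (circles) and with regorafenib (triangles), with 95% counting intervals and dashed lines at 2-fold. The ratios of an arm share its M0 library. Fcgr2b is above 0 in all 4 ratios, from 1.45 to 3.54, and Fcgrt in M1 has -1.19 in control cells and -3.54 with regorafenib.

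To compare receptors with each other, levels were divided by the length of the exons of each gene. Per kb, Fcgr3 was the leading receptor gene in every library, and its share of the 4 receptor genes was 73.2% in M0 control, 87.3% in M0 with regorafenib, 37.9% in M1 control, 52.3% in M1 with regorafenib, 85.7% in M2 control and 83.0% in M2 with regorafenib. Its share was lowest in the M1 libraries, where Fcgr2b held 26.8% and 31.5%. In counts with no length scaling, Fcgr2b led in both M1 libraries, with 13337 and 12647 beside 5662 and 6302 for Fcgr3. The shares thus depended on the lengths used. Fcgr1 held 19.3% in M0 control, 4.40% in M0 with regorafenib, 19.4% in M1 control, 9.55% in M1 with regorafenib, 2.50% in M2 control and 0.977% in M2 with regorafenib. Fcgr4 reached 16.0% in M1 control and 6.64% in M1 with regorafenib, and 3.69% or less elsewhere.

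The activating-to-inhibitory ratio, (Fcgr1 + Fcgr3 + Fcgr4) over Fcgr2b per kb within a library, was 25.2 in M0 control and 17.0 in M0 with regorafenib. It was 2.74 and 2.18 in M1, and 8.38 and 5.79 in M2. Regorafenib libraries had the lower ratio in all 3 states, by 1.48-fold in M0 (log2 change -0.56, -0.66 to -0.47), 1.26-fold in M1 (-0.33, -0.38 to -0.28) and 1.45-fold in M2 (-0.53, -0.59 to -0.48). In control cells the ratio was 9.21-fold lower in M1 and 3.01-fold lower in M2 than in M0.

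The members behind these drug changes differed by state. In M0, Fcgr2b was higher and Fcgr1 lower with regorafenib, and without Fcgr1 the change was -0.31. In M2, Fcgr2b was higher, and without Fcgr1 the change was -0.51. With Fcgr3 alone as the activating receptor the changes were -0.28 and -0.51. In M1, Fcgr2b was level (0.02), Fcgr1 and Fcgr4 were lower and Fcgr3 was higher (0.25). Fcgr3 alone over Fcgr2b thus gave a change of the other sign (0.23, 0.17 to 0.29). Fcgr2b's exon length of 5790 bases exceeds the 3544 bases of its principal transcript. With principal transcript lengths the ratios were lower, from 1.63 to 18.8, and the drug changes were -0.51, -0.24 and -0.53. From counts with no length scaling the control ratios were 8.22, 0.88 and 2.54 for M0, M1 and M2, and the regorafenib ratios 5.19, 0.68 and 1.74, so that Fcgr2b had more counts than the activating receptors together in both M1 libraries. The size of the ratio, and its side of 1 in M1, thus depended on the lengths used.

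**Figure D4:**
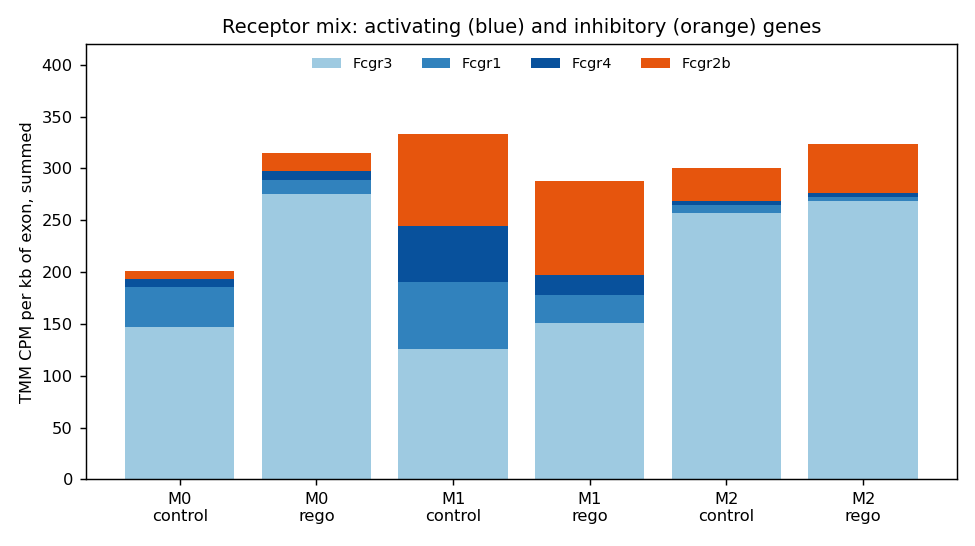
Summed level of the 4 receptor genes in each library, in TMM-scaled CPM per kb of exon, stacked by gene with activating receptors in shades of blue and Fcgr2b in orange. The sums run from 201 in M0 control to 333 in M1 control, and the orange share is largest in the M1 libraries (26.8% and 31.5%).

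Fcer1g exceeded the sum of the 3 activating receptors per kb in every library. The ratio of adaptor to activating receptors was 3.23 in M0 control, 1.89 in M0 with regorafenib, 6.08 in M1 control, 8.85 in M1 with regorafenib, 2.43 in M2 control and 1.85 in M2 with regorafenib. It was higher with regorafenib in M1 and lower in M0 and M2. That Fcer1g exceeded the sum depended on the scaling by length in the regorafenib libraries of M0 and M2. In counts, Fcer1g had 16241 in M0 with regorafenib beside 15731 for Fcgr3, 1184 for Fcgr1 and 363 for Fcgr4, which together exceed it. In M2 with regorafenib it had 12489 counts, fewer than the 13052 of Fcgr3 alone.

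Other genes of the pathway were counted from lists written from general knowledge. Of 10 kinases of ITAM signalling, 5 rose and 1 fell in M1 against M0 (edgeR adjusted p under 0.05 over all genes, which 36.4% of all genes passed). Src, a kinase that phosphorylates ITAMs, rose by 3.99 (edgeR adjusted p = 0.00028) and Syk, which docks on the phosphorylated ITAM, by 1.39 (0.0064). In control cells 6 of the 10 kinases were past 2-fold in M1, beside 37.5% of all genes. Among them Prkcd, a protein kinase C, was higher (log2 ratio 1.15), and Fgr (-1.01), a Src-family kinase, and Pik3cd (-1.05), a catalytic subunit of PI3-kinase, were lower. With regorafenib, none of the 10 was past 2-fold in M0 (21.6% of all genes) or M1 (7.94%), and Fgr was in M2 (log2 ratio 1.34, 13.2% of all genes).

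Of 11 adaptors and effectors of ITAM signalling, 3 rose and 5 fell in M1, beside 36.4% of all genes called. Lcp2 (SLP-76), a scaffold downstream of Syk, rose by 2.57 (edgeR adjusted p = 0.000855), whereas Lat2, a membrane adaptor, fell by 2.08 (0.0020) and Vav3, a guanine nucleotide exchange factor, fell by 2.60 (0.00089). Rac2, a GTPase of the phagocytic cup and the oxidase, rose by 1.35 (0.0056). Regorafenib separated 1 of the 11 by 2-fold in any state, Vav3 in M2 (-1.03), beside 21.6%, 7.94% and 13.2% of all genes in M0, M1 and M2.

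Of 11 ITIM effectors and negative regulators, 2 rose and 3 fell in M1, beside 36.4% of all genes called. Inpp5d, the SHIP1 phosphatase that Fcgr2b recruits, fell by 0.85 (edgeR adjusted p = 0.022), while its receptor rose. The 1 gene of this list past 2-fold with regorafenib in M0 and M2 was Dok2, an adaptor that restrains Ras signalling, with log2 ratios of -2.51 and -1.42, and with -0.12 in M1. Its counts were 5389 and 1017 in M0 control and regorafenib, 1014 and 870 in M1, and 7527 and 2160 in M2. Of 15 genes of the phagocytic cup and actin, 2 rose and 4 fell in M1, beside 36.4% of all genes called. None of the 15 was past 2-fold with regorafenib in any state, beside the same 21.6%, 7.94% and 13.2% of all genes.

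The partners of the members were abundant. B2m, the light chain that Fcgrt needs, had 33670 to 140516 counts and rose by 2.12 in M1 (edgeR adjusted p = 0.0021), where Fcgrt fell. Its log2 drug ratios were 0.29, -0.11 and 0.39 in M0, M1 and M2. Tyrobp, the other ITAM adaptor of myeloid cells, fell by 0.94 in M1 (edgeR adjusted p = 0.010), where Fcer1g rose.

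Among 6 receptors that pair with Fcer1g, 4 passed the filter. Clec4e (Mincle), a receptor for mycobacterial glycolipid, rose by 5.19 in M1 (edgeR adjusted p = 0.00035), and Pira2, from a multigene family whose near-identical copies can share reads, fell by 1.58 (0.014). Clec4n (Dectin-2), a receptor for fungal mannans, had 290 and 2135 counts in M0 control and regorafenib, 2111 and 923 in M1, and 79 and 302 in M2. Its log2 drug ratios were 2.78, -1.09 and 2.32, a pattern with opposite sign in M1.

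Of 13 other Fc and immunoglobulin receptors, 4 passed the filter. Of these 4, 2 rose and 2 fell in M1, where 36.4% of all genes were called. Trim21, the cytosolic antibody receptor, rose by 2.07 in M1 (edgeR adjusted p = 0.0018). Fcrlb, an Fc receptor-like gene, had 1 and 5 counts in M0 control and regorafenib, 93 and 43 in M1, and 10 and 4 in M2, and it rose in M1 by 4.69 (edgeR adjusted p = 0.0047). Fcrls, of the same family, had 42 and 52 counts in M0 control and regorafenib, 1 and 0 in M1, and 419 and 805 in M2, and it fell in M1 (edgeR adjusted p = 0.0038). Fcrl1 was lower with regorafenib in each state. It went from 265 counts in control to 81 in M0, from 60 to 31 in M1 and from 54 to 20 in M2, with log2 ratios of -1.81, -0.85 and -1.05. The other 9, including the IgE receptor chains Fcer1a and Ms4a2, had 7 counts or fewer in every library.

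For the interferon-γ axis, which induces Fcgr1, 7 of 11 genes rose and 1 fell in M1, where 36.4% of all genes were called. Irf1, a transcription factor of this axis, rose by 3.72 (edgeR adjusted p = 0.0029). With regorafenib, 2 of the 11 were higher and 2 lower by 2-fold in M0 (9.85% and 11.7% of all genes), none in M1 (7.94% in either direction), where their log2 ratios lay between -0.21 and 0.20, and 3 higher and none lower in M2 (7.43% and 5.81%). Socs1, a feedback inhibitor of cytokine signalling, was among those lower in M0, with 63 counts in control and 21 with regorafenib (-1.69). Ifngr1, a chain of the IFN-γ receptor, was higher in M0 (1.08) and M2 (1.03), and Irf1 in M2 (1.64). Ciita, the regulator of MHC class II genes, was higher with regorafenib in M0 (3.77) and M2 (3.28) and level in M1 (0.10).

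The genes closest in pattern to each member were found among 10505 genes with a mean of at least 100 counts, by the root mean square difference of log2 levels over the 6 libraries after each gene's mean was subtracted. Nearest to Fcgr1 were Vcan (0.37), Oas2 (0.54) and Dner (0.55). Nearest to Fcgr2b were Rnf19b (0.31), Nfil3 (0.36) and Cmklr1 (0.44), and nearest to Fcgr4 were Ralgps1 (0.30), Slc31a1 (0.36) and 2500002B13Rik (0.37). Fcgr3 had Osbpl11, Tbc1d22a and Cyp2j6 at 0.12 to 0.13. The closest match of all was between Fcer1g and Selenow (0.04), followed by Rac2 and Tmem63b (both 0.07). Fcgrt had Mxd4 (0.20), Pdcd4 (0.27) and Arhgef4 (0.31). No member was among the 3 nearest genes of another.

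**Figure D5:**
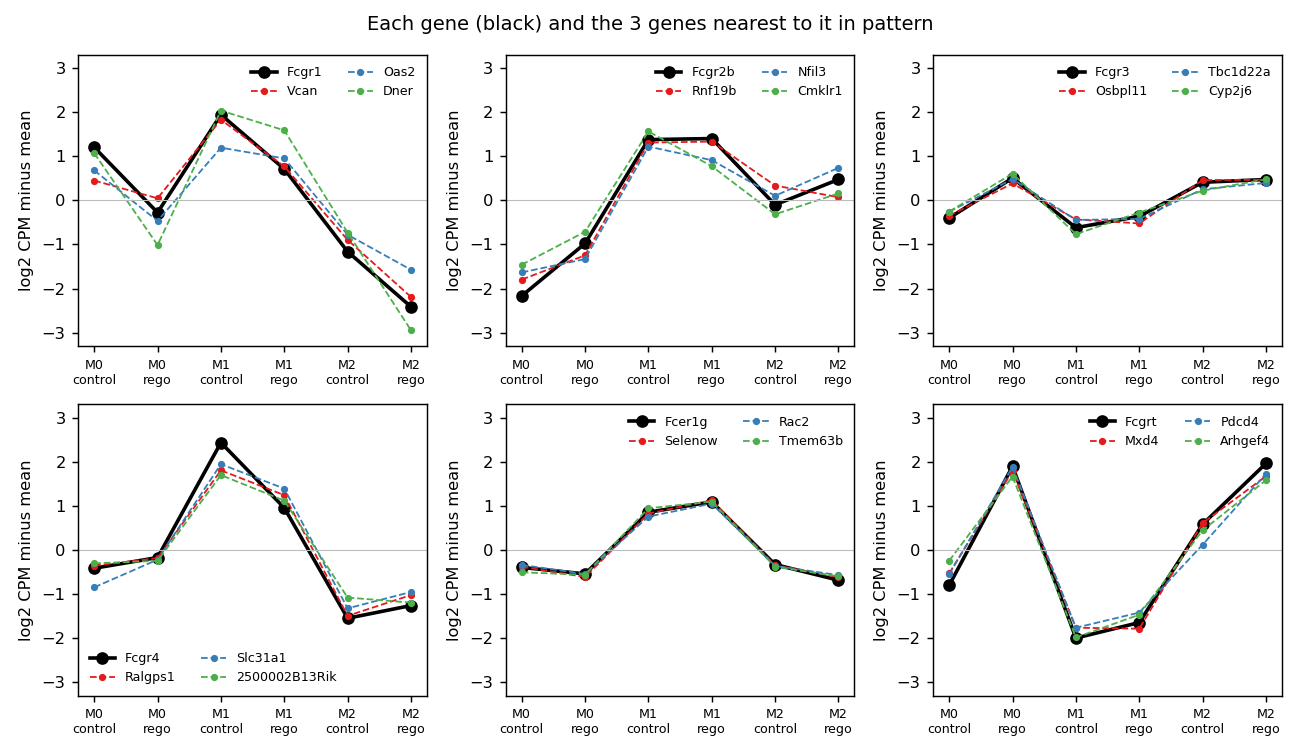
Log2 CPM minus each gene's own mean over the 6 libraries, for each member (black) and the 3 genes nearest to it by root mean square difference (colours). Fcer1g and Selenow differ least (0.04), and the neighbours of Fcgr1 the most (0.37 to 0.55).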

How the data were processed

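RNA of mouse BMDMs was sequenced in 6 conditions with 1 library each (TruSeq Stranded mRNA). The authors deposited read counts per gene. Per their methods and processing notes these came from FastQC 0.11.8, cutadapt 2.4 and STAR 2.7.2a on GRCm38 with gene counting on Gencode M19. They are integers with unequal totals, so none was normalized, and the strand column taken is not stated. BALB/c reads were set against the C57BL/6J reference in all libraries alike. Names and positions came from Gencode M21: 53229 of 54446 gene IDs matched with their version, 1180 without it and 37 not at all. Promoters came from RefSeq (GRCm38.p6).

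Counts were scaled with TMM (edgeR 4.0.16, R 4.3.3), with factors of 0.820 to 1.12. Ratios have conditional exact binomial 95% intervals, with a count of 0 replaced by 0.5. The 10 most abundant genes held 9.76% to 14.4% of a library. Past 2-fold was the rule for a pair of libraries, since the no-replicate mode in the study's methods rests on simulated replicates. The additive fit used edgeR's quasi-likelihood test (two-sided) with Benjamini-Hochberg adjustment over 14110 genes, with 2 residual degrees of freedom. DESeq2 1.42.0 was an alternative. With no replicates known to be separate cultures, p-values measure only the spread between these libraries. Python 3.11.15 served the other steps, with pandas 2.3.3, scipy 1.17.1 and numpy 2.4.6.

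The text names all 6 members, some genes of the pathway and marker lists, chosen among those past 2-fold or under discussion, and the 3 genes nearest to each member. Some genes of the lists are not reported here by name. Members and lists were chosen with earlier results of these data known. The alternatives were other scalings, 1 CPM added, other filters and folds, left-out states, other forms of the activating-to-inhibitory ratio and another measure of likeness. Principal transcript length was added after seeing the data.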

Additional observations from a re-analysis of the deposited data

Results flagged for a closer look

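Some members had ratios of opposite sign in different states. Fcgr4 had a log2 ratio of regorafenib to control of 0.24 in M0 and -1.48 in M1. Fcer1g had -0.15 in M0, 0.24 in M1 and -0.35 in M2, so that M1 was opposite to both other states. Its M2 against M0 ratio was 0.0655 in control cells and -0.14 with regorafenib. With 1 library per condition, these differences between states and arms were not tested.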

How the results depend on the processing

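Counting error was widest for Fcgr4 and Fcgrt, whose lowest libraries held 145 and 179 counts. Scaling to total counts shifted the median of all genes in M1 against M0 by -0.44 in control cells and -0.41 with regorafenib. Of 42 member ratios, it changed the sign of 1 (Fcer1g in M2 against M0, control) and the side of 2-fold of 3: Fcer1g in M1 against M0 in control (0.81), and with regorafenib Fcgr3 (-1.28) and Fcgr4 (0.71). DESeq2 size factors and upper-quartile factors each moved 1 across 2-fold, Fcgr1 in M1 against M0 with regorafenib (1.06 and 1.02), and 1 CPM added moved 2, Fcgr4 in M2 against M0 (-0.97 and -0.96). At 4-fold, the members past the threshold were 1, 0 and 0 for regorafenib in M0, M1 and M2, 2 in M1 and 2 in M2 against M0 in control, and 2 and 1 with regorafenib. Of all 14917 genes, 877, 279 and 475 were past 4-fold for regorafenib in M0, M1 and M2, 2820 in M1 and 561 in M2 against M0 in control, and 2839 and 494 with regorafenib. With 1 CPM added, 1495, 154 and 565 genes were past 2-fold for regorafenib in M0, M1 and M2, in place of 3221, 1185 and 1975. With no filter on low counts these were 6688, 4139 and 5275. The members past 2-fold numbered 3, 2 and 2 in both settings, as before.

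Genes called for regorafenib numbered 0 in the additive edgeR fit, 141 with no filter, 296 with DESeq2, and 0 to 696 with 1 state left out (696 without M1). For M2 against M0 the numbers were 28, 304 with no filter, 413 with DESeq2 and 163 without M1. The causes were not tested.

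The log2 change of the activating-to-inhibitory ratio with regorafenib in M0 was -0.66 with no length scaling, -0.31 without Fcgr1 and -0.28 with Fcgr3 alone. In M1 it was -0.10 without Fcgr1, -0.24 with principal transcript lengths and 0.23 with Fcgr3 alone. For M1 against M0 in control it was -3.32 without Fcgr1 and -3.76 with Fcgr3 alone, and with regorafenib -3.12 and -3.24. For M2 against M0 in control it was -1.70 with no length scaling, -1.31 without Fcgr1 and -1.26 with Fcgr3 alone, and with regorafenib -1.48 with Fcgr3 alone. By Pearson's r, the 3 nearest genes of each member were others, apart from Selenow for Fcer1g.

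No paired analysis was possible because the labels carry no replicate numbers within a condition, which concerns pairing by replicate only. The additive fit already compares the arms within each state, with the state as a block.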
